A study of Mus musculus with 6 samples.

Results

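The smooth muscle contractile genes are 10 transcripts that build and drive the contractile apparatus of vascular and visceral smooth muscle: Acta2, Tagln, Cnn1, Tpm2, Lmod1, Smtn, Myh11, Myl9, Mylk and Des. They were chosen by gene symbol, using probes that the platform annotation ties to a single symbol, and for each gene the probe with the highest mean over the 6 arrays stood for it. All 10 were found among the 18048 genes with such a probe, and all 10 passed the filter on low values. Kidneys of 3 wild-type mice and of 3 mice homozygous for a mutation were compared, each animal on its own single-colour CodeLink oligonucleotide array, so that the spread within a genotype is that between animals and arrays together. The tissue was part of a kidney, frozen after its vessels had been flushed with buffered saline. The labels call the mutants KO. The sources used here do not give the mutated gene, the strain, the age, the sex or any treatment.

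In smooth muscle, calcium-bound calmodulin activates myosin light chain kinase, the kinase phosphorylates the regulatory light chain, and the myosin motor then pulls on actin filaments dressed with tropomyosin and calponin-type proteins. Many genes of this apparatus share a control element, the CArG box, which binds serum response factor (SRF) and its co-activators of the myocardin family. In kidney these transcripts are known from the walls of arteries and arterioles and from the renal pelvis, and some of them, Acta2 above all, also from pericytes and from the myofibroblasts of scarring tissue.

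Intensities are given as multiples of the array median, and levels as log2 of these multiples. Each array had 37.6% to 41.7% of its probes above a low-signal limit of 1.51 times the array median (0.60 in log2), set after the values had been seen. The replicate 1 arrays of both genotypes stood apart in sex-linked transcripts: Xist read 4.64 and 7.98 times the array median there and between 0.556 and 0.862 on the other arrays, while Eif2s3y, a Y-linked gene, read 0.0435 and 0.162 against 8.05 to 11.0. High Xist with low Eif2s3y is the pattern of a female animal, and the reverse that of a male. Each genotype thus held 1 array with the female pattern, while its other arrays had the male pattern. The results that follow were also computed from replicates 2 and 3 alone.

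Most of the contractile genes were more abundant in mutant kidney. By limma with Benjamini-Hochberg adjustment over 25834 probes, 7 of 10 rose past an adjusted p of 0.05 and 0 fell, against 5.67% of the 14814 tested genes that rose, 1.59% that fell and 7.26% in either direction. The 7 were Tagln, Des, Cnn1, Acta2, Myh11, Myl9 and Mylk, with increases from 1.67-fold to 3.39-fold on the chosen probes. Smtn, Lmod1 and Tpm2 did not pass. The median difference of the 10 genes, mutant minus wild type, was 0.94 log2 units, against 0.08 over all tested genes. Every mutant array lay above every wild-type array for 8 of the 10, which was the case for 17.8% of genes measured on all 6 arrays, while the reverse order held for 0 of the 10 and 8.89% of genes. More contractile cells and more transcript per cell cannot be told apart in RNA from whole tissue. With replicates 2 and 3 alone the number that rose was again 7, with the same 7 genes. With no intensity trend in the variance model it was 1, Tagln, where 0.739% of all probes passed instead of 5.39%.

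**Figure D1:**
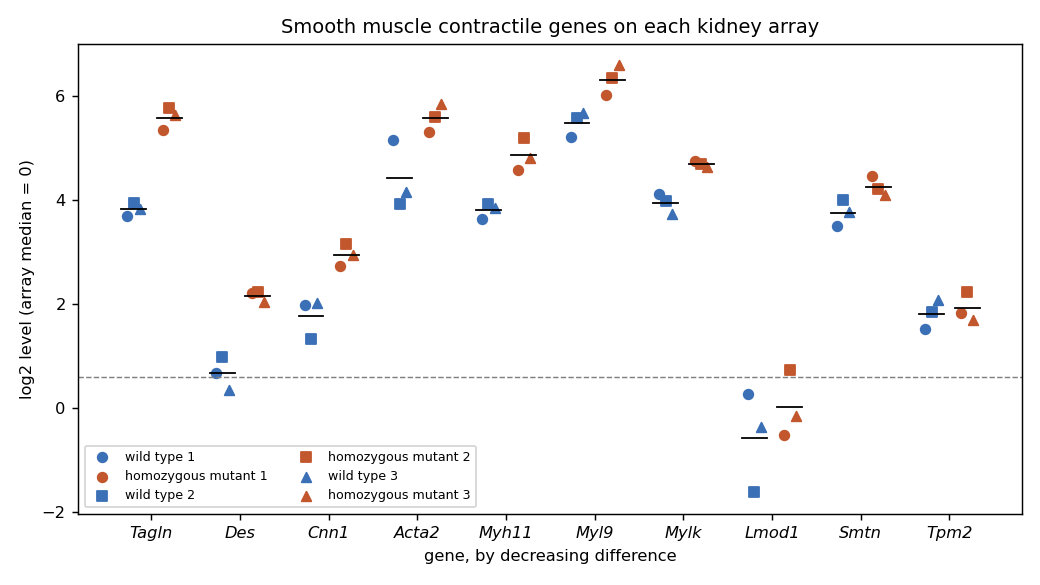
Log2 level of the chosen probe of each contractile gene on the 6 kidney arrays (y axis, array median at 0), with wild type in blue and homozygous mutants in orange, 1 symbol shape per replicate number, black bars for the means and a dashed line at the low-signal limit. For 8 genes the mutant points lie above all wild-type points, and Acta2 has 1 wild-type point, replicate 1, close to the mutants.

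**Figure D2:**
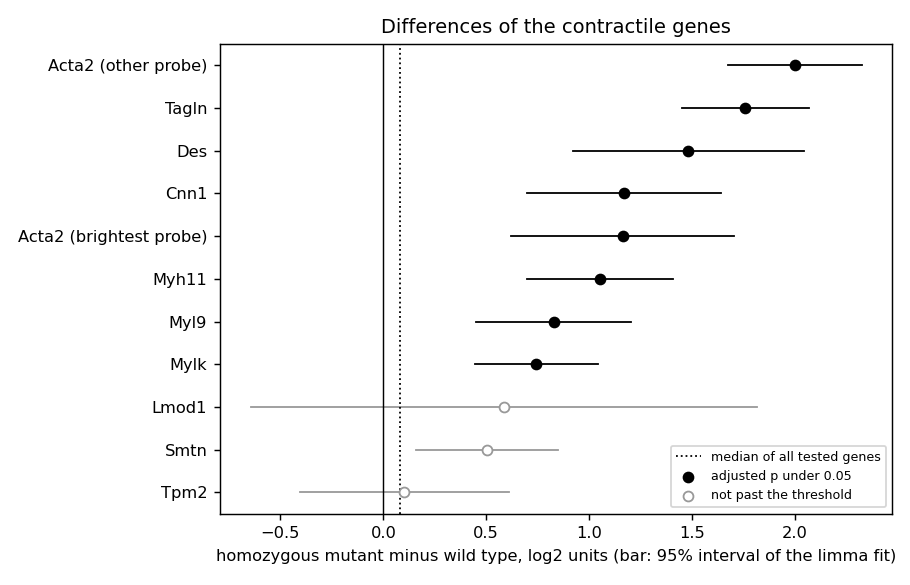
Difference of each contractile gene in log2 units, homozygous mutant minus wild type (x axis), with the 95% interval of the limma fit, both Acta2 probes included. Filled points passed an adjusted p of 0.05; the dotted line marks the median of all tested genes at 0.08.

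Upstream sequence was read from RefSeq (GRCm38.p6) for 8 of the 10 genes, as the window of 250 bases before each transcription start, because the CArG box is a known control element of such genes. The CArG box was searched by name, as was a CArG-like stretch with 5 of its 6 core bases A or T; the motif reads the same on both strands, and no stretch found in these windows overlaps another. Myl9 held 1 CArG box and 1 CArG-like stretch, Acta2 held 2 CArG-like stretches, and the windows of Cnn1, Des, Mylk, Lmod1, Smtn and Tpm2 held neither. Of 32851 RefSeq windows of the same length, 1.47% held a CArG box and 7.24% a CArG-like stretch. The windows of Acta2 (chr19:34255374-34255623, minus strand) and Myl9 (chr2:156775214-156775463, plus strand) are shown 5′ to 3′ because they alone among the 8 carry such stretches, which stand in capitals.
Acta2: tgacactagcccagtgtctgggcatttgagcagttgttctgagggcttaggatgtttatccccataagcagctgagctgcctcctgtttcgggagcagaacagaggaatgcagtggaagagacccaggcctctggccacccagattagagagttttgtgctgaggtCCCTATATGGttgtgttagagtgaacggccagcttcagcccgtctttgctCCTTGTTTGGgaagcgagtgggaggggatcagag
Myl9: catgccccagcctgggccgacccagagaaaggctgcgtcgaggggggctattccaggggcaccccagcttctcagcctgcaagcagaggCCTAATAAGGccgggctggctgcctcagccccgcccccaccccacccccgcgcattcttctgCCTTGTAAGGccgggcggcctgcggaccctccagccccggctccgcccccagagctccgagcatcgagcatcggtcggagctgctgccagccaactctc
In Acta2 the stretches begin 84 and 34 bases before the start, and in Myl9 the CArG box begins 161 bases and the CArG-like stretch 99 bases before it. Both genes rose, and so did 3 of the 6 genes without such a stretch in the window. Tagln and Myh11, which also rose, had no window to search. Sequence outside the 250 bases was not searched for any gene, and a link between the stretches and the rise was not tested.

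Among the thin filament genes, Acta2, which encodes the smooth muscle alpha-actin of the filament itself, was measured by a pair of probes that disagreed on 1 array. Its brightest probe (354085) read 35.6, 15.3 and 17.9 times the array median on wild-type replicates 1 to 3 and 39.6, 48.0 and 57.4 on the mutants. Its other probe (169012) read 11.1, 12.2 and 14.1 in wild type and 42.1, 50.5 and 57.3 in mutants. On both probes all mutants were above all wild types, but on the brightest probe wild-type replicate 1 lay near the lowest mutant. The brightest probe rose by 1.16 ± 0.25 log2 units (SE of the limma fit, adjusted p = 0.0142) and the other probe by 2.00 ± 0.15 (adjusted p = 4.35e-06), or 2.24-fold and 4.01-fold. Without wild-type replicate 1 the brightest probe gave 1.53 ± 0.17, and with replicates 2 and 3 alone 1.67 ± 0.15. The call on that probe did not pass in the 4 limma fits that lacked replicate 2 or 3 of either genotype (adjusted p between 0.0604 and 0.0766), nor with robust variance (adjusted p = 0.062) or no intensity trend (adjusted p = 0.228), while the other probe passed in all 19 alternatives. On wild-type replicate 1 the difference between the Acta2 probes departed from that on the other wild types by 1.35 log2 units. Among 606 genes with at least 2 probes above the low-signal limit on all arrays, 9 (1.49%), Acta2 included, departed at least as far there. The probe sequences were not used here, and which of the probes reads the actin more faithfully was not tested.

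**Figure D3:**
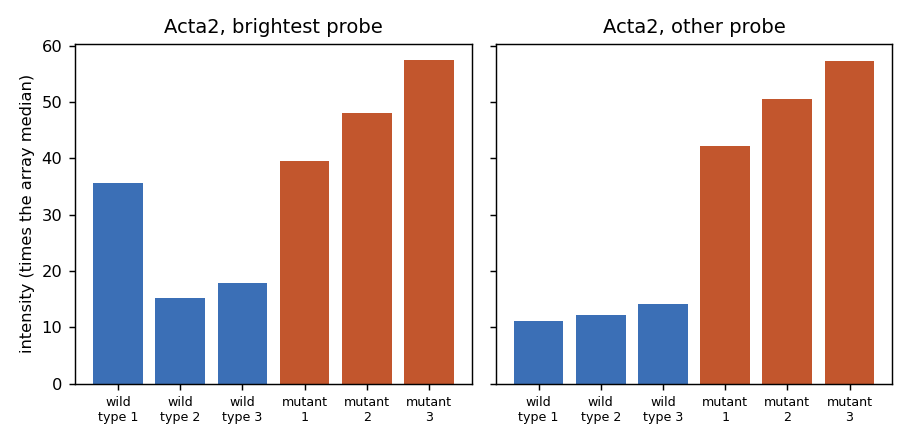
Intensity of the Acta2 probes on each array in multiples of the array median (y axis from 0), wild type in blue and homozygous mutants in orange, 1 bar per animal. The brightest probe on the left reads 35.6 on wild-type replicate 1, where the other probe on the right reads 11.1.

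Tagln encodes transgelin (SM22 alpha), a calponin-family protein that cross-links actin. It read 13.0, 15.3 and 14.3 times the array median in wild type and 40.8, 54.5 and 49.5 in mutants, with no overlap and little spread on either side. The log2 level went from 3.82 ± 0.12 to 5.58 ± 0.21 (SD, n = 3 each), a rise of 1.76 ± 0.14 (SE; limma, adjusted p = 7.76e-06), or 3.39-fold with a 95% interval of 2.73 to 4.20. Cnn1, calponin 1, binds actin and slows the myosin ATPase. It read 3.96, 2.52 and 4.03 in wild type and 6.66, 8.91 and 7.72 in mutants, so that the lowest mutant was above the highest wild type. Cnn1 rose by 1.17 ± 0.22 (limma, adjusted p = 0.00558), or 2.25-fold.

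The remaining thin filament genes did not pass. Smtn encodes smoothelin, an actin-binding protein of contractile smooth muscle. It read 11.3, 16.0 and 13.6 times the array median in wild type and 22.0, 18.4 and 17.2 in mutants. The genotypes did not overlap, but the difference of 0.50 ± 0.16 log2 units had a limma adjusted p of 0.0977, a 95% interval of 0.16 to 0.85, and passed in 0 of 20 alternatives. Tpm2 encodes beta-tropomyosin, which lies along the actin filament. It read 2.87, 3.58 and 4.23 in wild type and 3.55, 4.70 and 3.22 in mutants, and the genotypes overlapped throughout. Its difference was 0.10 ± 0.24 (limma, adjusted p = 0.883) with a 95% interval of -0.41 to 0.61, which leaves out the rises of Tagln, Des, Cnn1, both Acta2 probes, Myh11, Myl9 and Mylk as point values. Its sign turned in 5 of 20 alternatives, among them quantile normalization and cyclic loess. Lmod1 encodes leiomodin 1, which nucleates actin filaments in smooth muscle. It read 1.21, 0.325 and 0.776 in wild type and 0.697, 1.65 and 0.898 in mutants, below the low-signal limit on all but mutant replicate 2, and is therefore given no fold change.

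The motor and its switch rose together. Myh11, the smooth muscle myosin heavy chain and the most restricted marker of the lineage, read 12.5, 15.1 and 14.4 times the array median in wild type and 23.8, 36.7 and 27.9 in mutants. The wild types lay close together, and the lowest mutant was above all of them. Myh11 rose by 1.05 ± 0.16 log2 units (limma, adjusted p = 0.00155), or 2.07-fold with a 95% interval of 1.62 to 2.65. A further probe that the annotation shares between Mef2d and Myh11 was not counted. Mylk encodes the myosin light chain kinase. It read 17.3, 15.9 and 13.2 in wild type and 26.8, 25.7 and 24.7 in mutants, the tightest mutant values of the 10 genes, with an SD of 0.058 log2. Mylk rose by 0.74 ± 0.14 (limma, adjusted p = 0.00555), or 1.67-fold. Myl9, the regulatory light chain that this kinase phosphorylates and whose upstream window is printed above, read 36.9, 47.8 and 51.1 in wild type and 64.9, 80.8 and 96.2 in mutants. Again no mutant fell within the wild-type range. Myl9 rose by 0.83 ± 0.17 (limma, adjusted p = 0.0120), or 1.77-fold, and did not pass without mutant replicate 2 (adjusted p = 0.0568) or 3 (adjusted p = 0.0633).

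Des encodes desmin, the muscle intermediate filament that links contractile units to the dense bodies. It read 1.60, 1.99 and 1.28 times the array median in wild type and 4.61, 4.71 and 4.09 in mutants. Wild-type replicate 3 lay below the low-signal limit and the other wild types just above it, while all mutants were well above it. The log2 level went from 0.67 ± 0.32 to 2.16 ± 0.11 (SD, n = 3 each), a rise of 1.48 ± 0.26 (SE; limma, adjusted p = 0.00377), or 2.80-fold with a 95% interval of 1.89 to 4.13.

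The size of the rise differed among the members. Tagln, singled out after its value was seen, exceeded the other 9 chosen probes by between 0.28 log2 units (Des) and 1.66 (Tpm2). The Acta2 probe that was not chosen rose further than Tagln, by 2.00. This order is a description and was not tested. Among the 14814 tested genes, 1.57% had a larger difference than Tagln, 2.56% than Des, 5.83% than Myh11 and 11.2% than Mylk. Across arrays, mutant replicate 2 held the highest value of 6 of the 10 genes, and mutant replicates 1 and 3 of 2 each. No wild-type array held the highest value of any of the 10, and no mutant array the lowest. The mean of the 10 genes, each centred on its own mean, was -0.38, -0.57 and -0.45 log2 on wild-type replicates 1 to 3 and 0.31, 0.65 and 0.45 on the mutants. Among the mutants, replicate 1 was lowest for 6 of the 10 genes and replicate 3 for 4. The deviations from the genotype means had a median Pearson r of 0.039 over the 45 gene pairs (6 arrays, the same arrays for every pair), a range of -0.93 to 0.95, and 24 positive pairs.

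**Figure D4:**
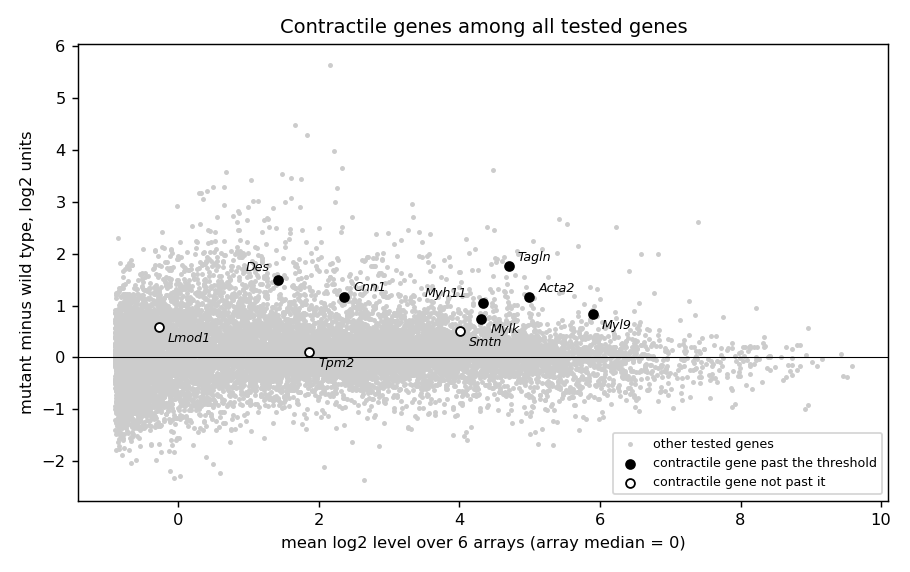
Difference in log2 units, homozygous mutant minus wild type (y axis), against the mean log2 level over the 6 arrays (x axis), 1 point per tested gene, grey for other genes. The 7 contractile genes past the threshold (filled) lie between 0.74 and 1.76, and Smtn and Tpm2 (open) at 0.50 and 0.10. Lmod1 (open, far left) is at background signal and its height has no reading.

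The wider pathway was read from lists of partners and regulators, whose counts stand beside 5.67% of all tested genes that rose and an all-gene median of 0.08. Among thin filament partners, 5 of 10 tested genes rose and 0 fell, with a median difference of 0.93 log2 units. Tpm1, the main striated and smooth muscle alpha-tropomyosin, averaged under the low-signal limit in wild type and was at least 2.92-fold higher in mutants (limma, adjusted p = 0.00132). Tpm4, a non-muscle tropomyosin, rose by 0.91 ± 0.16 and Cnn2, a calponin of non-muscle cells, by 1.05 ± 0.18. The transgelin homologue Tagln2 rose by 0.96 ± 0.22 and Tpm3 by 0.71 ± 0.19, with 2 wild-type values for Tpm3, whose call was lost in 12 of 16 alternatives. The Tagln2 call was lost on leaving out replicate 2 of the wild types (0.92 ± 0.24) and replicate 2 (1.05 ± 0.26) or 3 (0.80 ± 0.25) of the mutants, and with replicates 2 and 3 alone (1.00 ± 0.25). Actg2, the gamma-actin of visceral smooth muscle, was below the limit on all wild-type arrays and above it on all mutants. Its mutant mean was 1.52 times the limit, and it did not pass (limma, adjusted p = 0.112). The count for this list was 3 or 4 in the fits that lacked 1 array and 3 with replicates 2 and 3 alone.

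Of 14 tested genes of the myosin motor and light chain phosphorylation, 1 rose and 0 fell, with a median of 0.41 against 0.08 over all tested genes. A count of 1 in 14 is near the 5.67% of all tested genes that rose and is no result about this list. That gene was Myl12a, a regulatory light chain of non-muscle myosin (0.69 ± 0.14; limma, adjusted p = 0.0104), which did not pass without mutant replicate 3 (0.59 ± 0.15). Ppp1r14a, the inhibitor CPI-17 of myosin phosphatase, differed by 0.73 ± 0.21 (limma, adjusted p = 0.0576). Every mutant array lay above every wild-type array for 7 genes of this list, against 17.8% of genes measured on all 6 arrays. Of 15 genes of the dense plaque and of intermediate filaments, 4 rose and 0 fell, with a median of 0.34. Of the 16 on the array, 5 averaged below the low-signal limit in both genotypes, and those that were tested enter the median. Vim, the mesenchymal intermediate filament vimentin, rose by 1.60 ± 0.14 log2 units. Csrp1, a LIM protein of smooth muscle, rose by 1.57 ± 0.19 and the focal adhesion protein Zyx by 0.84 ± 0.14. Pdlim7 was at least 1.24-fold higher, with a call lost in 12 of 19 alternatives.

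Of 15 tested regulators of the smooth muscle programme, 3 rose and 0 fell, with a median of 0.25. Of the 20 regulators on the array, 10 averaged below the low-signal limit in both genotypes, and those that were tested enter the median. Fhl2, a LIM cofactor of SRF, rose by 1.62 ± 0.20, the growth factor Tgfb1, an inducer of the myofibroblast state, by 1.22 ± 0.15, and Mrtfb, a co-activator of SRF, by 0.82 ± 0.17, with a call lost without mutant replicate 2 (0.67 ± 0.18). Other Mrtfb probes were not tested. Srf itself differed by 0.0051 ± 0.31 (limma, adjusted p = 0.997), and Myocd lay below the low-signal limit in both genotypes. Of 15 genes of calcium handling and contractile receptors, 1 rose and 0 fell, with a median of 0.43, and this count too is near the 5.67% of all genes. Differences were positive for 9 of the 15. Every mutant array lay above every wild-type array for 5 genes of the list, against 17.8% of genes measured on all 6 arrays. They were Rgs2 and, not past the threshold, Rgs5, Rgs4, Gucy1a1 and Kcnmb1 (limma, adjusted p between 0.0786 and 0.121). Of these, Rgs4 and Gucy1a1 lay below the low-signal limit on all wild-type arrays, and Gucy1a1 also on mutant replicate 3. Kcnmb1 lay below it on wild-type replicates 1 and 3, and Rgs5 on wild-type replicate 1. On average, 7 genes of the list lay below the low-signal limit in both genotypes. Rgs2, which limits signalling by contractile receptors, rose by 0.79 ± 0.16 and did not pass without mutant replicate 1 (0.74 ± 0.19) or 2 (0.76 ± 0.19), or with replicates 2 and 3 alone (0.56 ± 0.15). A dimmer Rgs2 probe (186042), below the low-signal limit on average in both genotypes, did not pass (limma, adjusted p = 0.870).

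Markers of other cells moved with the contractile genes in part. Their counts, too, stand beside 5.67% of all tested genes that rose and 1.59% that fell. Of 9 myofibroblast matrix genes 9 rose, with a median difference of 1.99 log2 units and a summed level of 164 to 235 times the array median in wild type and 592 to 616 in mutants. Among them Fn1 rose by 1.99 ± 0.13, Tnc by 2.04 ± 0.18, Col3a1 by 1.99 ± 0.19 and Col1a1 by 2.23 ± 0.21. Of 10 tested pericyte and fibroblast markers 5 rose, with a median of 1.15 and a summed level of 48.8 to 70.4 in wild type and 129 to 187 in mutants. These were the receptors Pdgfrb (1.35 ± 0.17) and Pdgfra (1.55 ± 0.21), the proteoglycan Dcn (1.93 ± 0.18), the Hedgehog effector Gli1 (0.94 ± 0.18) and the adhesion molecule Mcam (0.86 ± 0.17, a call lost without mutant replicate 2, at 0.73 ± 0.18). The pericyte markers Abcc9 and Notch3 lay below the low-signal limit on all arrays. Cspg4, Kcnj8 and the fibroblast marker Thy1 averaged below it in both genotypes, with single arrays above it. Rgs5 read 0.272, 1.96 and 2.41 in wild type and 3.76, 5.05 and 4.43 in mutants, and did not pass (limma, adjusted p = 0.0786). Lum was below the limit on all wild-type arrays and above it on all mutants, and did not pass either (limma, adjusted p = 0.0529). The part of these cells in the rise of the contractile genes was not tested.

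Of 5 macrophage markers 3 rose, with a summed level of 10.7 to 10.9 in wild type and 38.2 to 58.4 in mutants: Cd14 by 2.42 ± 0.17, Aif1 by 1.86 ± 0.21, and Fcgr1, at least 3.60-fold higher. Mrc1 differed by 1.07 ± 0.33 and did not pass (limma, adjusted p = 0.0890). Adgre1 lay below the low-signal limit on all arrays, so its difference has no reading. Of 9 tested endothelial markers 1 rose, Tie1 (0.74 ± 0.19), lost in 8 of 19 alternatives, and the summed level was 89.2 to 101 in wild type and 120 to 130 in mutants. For 5 endothelial markers every mutant array lay above every wild-type array, against 17.8% of genes measured on all 6 arrays. Of 4 mesangial and juxtaglomerular markers 1 rose, Sfrp2, at least 1.73-fold higher and lost in 11 of 19 alternatives, with summed levels of 10.9 to 13.9 and 15.6 to 19.2. Of 6 urothelial markers 1 rose, Krt5 (1.25 ± 0.28), which did not pass when wild-type replicate 3 was left out, nor when mutant replicate 1 or 3 was (1.12 to 1.20), nor with replicates 2 and 3 alone (1.18 ± 0.32), while the summed level was 15.9 to 20.0 in wild type and 17.8 to 21.1 in mutants. Tie1, Sfrp2 and Krt5 did not pass with replicates 2 and 3 alone (limma, adjusted p = 0.189, 0.187 and 0.0802), and nothing is read from counts of 1. The part of these cells was not tested either.

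Skeletal muscle, which shares Des and Tpm2 with smooth muscle, left little signal on the arrays. Of 8 tested markers 0 rose and 0 fell by limma with Benjamini-Hochberg adjustment, and 1, which was lower, had an unadjusted p under 0.05. That gene, Myh7, lay below the low-signal limit on every array with a value and had 2 mutant values, so its difference has no reading. Of the 13 markers on the array, 11 lay below the low-signal limit in both genotypes, among them Acta1, Ckm, Myh4 and Tnnt3, and the summed level was 10.4 to 11.1 in wild type and 9.23 to 10.9 in mutants. Of 2 tested adipocyte markers 0 rose and 0 fell (limma; 0 with an unadjusted p under 0.05), and the summed level ranged from 2.76 to 10.4 in wild type and from 1.62 to 8.19 in mutants. The kidney epithelium was present on all arrays, with summed levels of 567 to 692 and 598 to 706. Umod (190 to 224 in wild type, 167 to 263 in mutants) and Calb1 (192 to 337 and 248 to 330) held the largest shares. The sums therefore do not read the proximal tubule. Of its 10 tested markers 0 rose and 2 fell, against 1.59% of all tested genes that fell. These were the proximal tubule genes Cubn, which fell by 0.98 ± 0.21, and Slc34a1, which fell by 0.72 ± 0.14. Lrp2, also of the proximal tubule, differed by -0.55 ± 0.18 and did not pass (limma, adjusted p = 0.119). Every mutant array lay below every wild-type array for all of these genes, as for 8.89% of genes measured on all 6 arrays. Slc5a2, a further proximal gene, averaged below the low-signal limit. Neither Cubn nor Slc34a1 passed without mutant replicate 2 (-0.72 for Cubn and -0.67 for Slc34a1) or wild-type replicate 3 (-0.85 and -0.69).

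**Figure D5:**
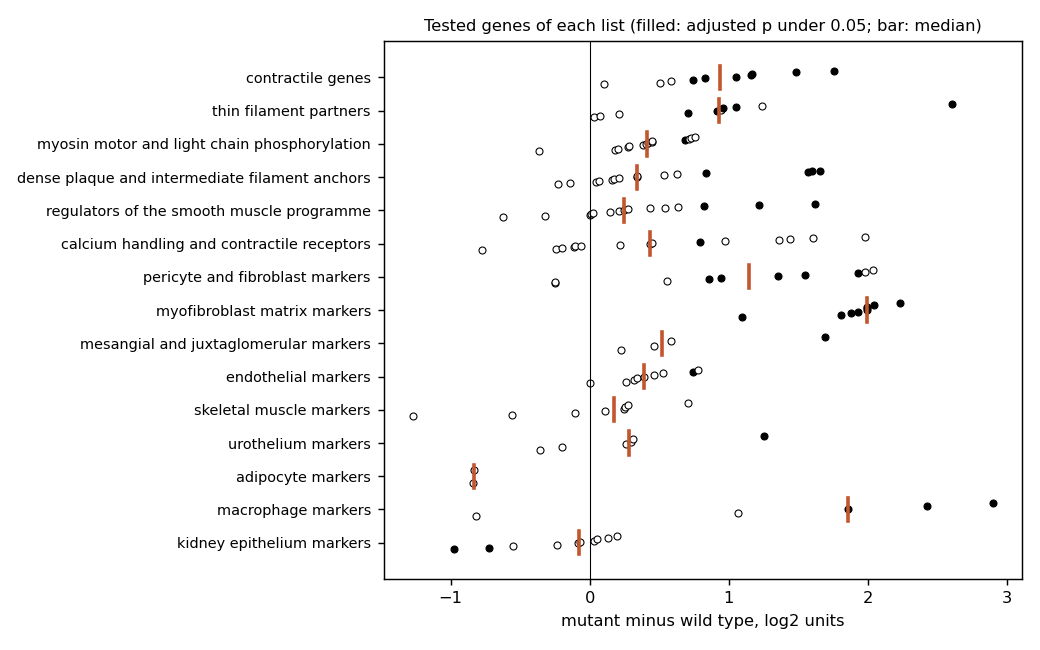
Difference in log2 units, homozygous mutant minus wild type (x axis), of every tested gene of the contractile list, the partner and regulator lists and the marker lists (y axis), 1 point per gene, filled where the adjusted p was under 0.05 and with an orange bar at the median. The medians are 0.94 for the contractile genes, 0.93 for thin filament partners, 1.99 for myofibroblast matrix markers and 0.18 for skeletal muscle markers.

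The genes most like the contractile mean over the 6 arrays were sought among 7773 other genes above the low-signal limit on all arrays, by Pearson r, as a description. They were Nfix (r = 0.998), Mvp (0.996), Atf5 (0.994), Fblim1 (0.990) and Rbak (0.989). Nfix is a transcription factor, Mvp the major vault protein, and Fblim1 a filamin-binding LIM protein of focal adhesions. Nfix rose by 0.79 ± 0.14 log2 units, Mvp by 1.06 ± 0.17, Atf5 by 0.77 ± 0.19 and Fblim1 by 1.22 ± 0.22, while Rbak differed by 0.39 ± 0.16 and did not pass (limma, adjusted p = 0.208). All of these values rest on the same 6 arrays and hold the genotype contrast within them.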

How the data were processed

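The deposited values are linear intensities, 1 for each probe on each array. Array medians between 0.994 and 0.997 and values below 0 point to scaling and background subtraction by the authors before deposit; scanner software and settings were not given in the sources used here. Each array was divided by its median and non-positive values were dropped as missing. Log2 was taken after raising the lowest values to a floor, the 10th percentile of the positive ones (0.29 of the median). Of 34937 probes, 34445 had at least 2 values per genotype, and 25834 were tested after the dimmest 25% were left out. The platform annotation gave 21590 probes 1 symbol. Limma 3.58.1 in R 4.3.3 (lmFit, eBayes with an intensity trend, two-sided) compared genotypes; 6 arrays limit the precision. The fitting code was tested on simulated data.

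The low-signal limit is the mode of the linear values plus 3 times their spread below it. "At least" folds set the brighter genotype's mean against that limit. Members, lists and tests were chosen with earlier results of these data known. Named were all members, of each list the up to 4 called genes of smallest p (all where 5 or fewer were called), and the 5 genes most like the members; the other genes named, among them Actg2, Ppp1r14a, Srf and Myocd, were chosen after their values were seen. Alternatives covered scaling, floor, filters, variance models, array weights, a replicate block, probe choice, threshold and each array left out; using the other Acta2 probe was added after seeing the data.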

Additional observations from a re-analysis of the deposited data

How the results depend on the processing

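The number of contractile genes past the threshold lay between 5 and 7 in 20 of the 21 alternatives, between 5 and 7 with single arrays left out, and was 1 with no intensity trend. It was 5 at an adjusted p of 0.01, 6 with robust variance and 7 with the other Acta2 probe. The count over all probes, 1392, moved to 678 at an adjusted p of 0.01, 191 with no intensity trend, 912 with only replicates 2 and 3, and between 742 and 1230 with single arrays left out. Of those 1392 calls 76.4% were higher in mutants, against 61.5% after quantile normalization, 62.9% after cyclic loess and 93.7% with no intensity trend. Tpm2, never past the threshold, turned sign after cyclic loess (-0.052), quantile normalization (-0.040) and with only replicates 2 and 3 (-0.00067), and ranged from -0.055 to 0.24 with single arrays left out. The cause was not tested. Of 199 single-gene results for the members, 179 kept direction and side of the threshold and 15 lost the call. Smtn, Lmod1 and Tpm2 gave 20, 19 and 15 of the kept results, but had no call to lose. Among the called genes, Acta2 lost its call in 7 of 20 alternatives and Myl9 in 4. Cnn1, Des, Myh11 and Mylk lost theirs in 1 each, and Tagln in 0. Same-numbered arrays deviated together from their genotype means only weakly (r of 0.072, 0.020 and 0.070), so the numbers were not taken as pairs. Even so, the deviations of each array correlated best with those of its own number in the other genotype. With the replicate block 7 contractile genes and 1856 probes passed. Probes near the low-signal limit, such as Lmod1, allow no reading of a difference at this signal.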
